A study of Sus scrofa with 12 samples.

Results

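Open chromatin of the fatty acid and triglyceride synthesis genes was compared between the longissimus dorsi muscle of Luchuan and Duroc pigs. The genes were FASN, SCD, ACACA, ACLY, ELOVL6, DGAT1, DGAT2, SREBF1, ME1 and GPAM, and all 10 were found by symbol in the RefSeq gene table of Sscrofa11.1. An open region belonged to a gene when its midpoint lay in the gene body or within 10 kb of it. The deposited table listed 189 such peak intervals out of 217213. After overlapping or adjoining intervals called in both breeds had been merged, with the longest one kept, they were 112 regions out of 140081. Each of the 10 genes had at least 3 regions.

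These genes carry out the steps by which a cell makes fat from sugar carbon. ACLY releases cytosolic acetyl-CoA from citrate, ACACA carboxylates it to malonyl-CoA, and FASN joins malonyl units to palmitate with NADPH that ME1 helps to supply. ELOVL6 lengthens palmitate, SCD puts a double bond into the chain, GPAM attaches the first chain to glycerol phosphate, and DGAT1 and DGAT2 add the last one. SREBF1 encodes a transcription factor that turns on many of the others after insulin. In pigs much of this synthesis takes place in adipose tissue, and muscle holds adipocytes between its fibers.

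ATAC-seq, in which a transposase cuts DNA that is not packed away and read counts follow how open the chromatin is, was performed on 3 Luchuan and 3 Duroc boars aged 180 days. No treatment is named for either breed, all of the boars were raised under the same feeding conditions, and they had been fasted overnight before slaughter. The table has 1 read count per region and breed, which was taken as pooled over the boars, so no spread between animals could be measured and no test between breeds was possible. The RNA-seq part of the study was not used here. The regions of the whole table held 13746020 Luchuan reads and 20759894 Duroc reads. Luchuan counts were therefore multiplied by 1.48, which brings the median log2 ratio over the regions called in both breeds to 0, and each log2 ratio below is that of Luchuan over Duroc on this scale. The 95% Clopper-Pearson interval after each ratio covers counting error only, and the reads carry no molecular identifiers, so they may not be independent. In whole muscle, fewer cells of a type and less open chromatin per cell cannot be told apart.

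Summed over its regions, none of the 10 genes differed between the breeds by 0.5 or more on the log2 scale, in either direction. Of all 16986 protein-coding genes with a region, 6.46% were past this limit as higher in Luchuan and 4.46% as higher in Duroc. The log2 ratios of the 10 genes ran from -0.19 for SREBF1 to 0.23 for SCD, with a median of -0.02, and the median of all genes was -0.01. The counting interval lay above 0 for SCD alone, against 22.5% of all genes, and below 0 for SREBF1 and ME1, against 25.5% of all genes. For ACLY, ACACA, FASN, ELOVL6, GPAM, DGAT1 and DGAT2 the interval included 0.

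**Figure D1:**
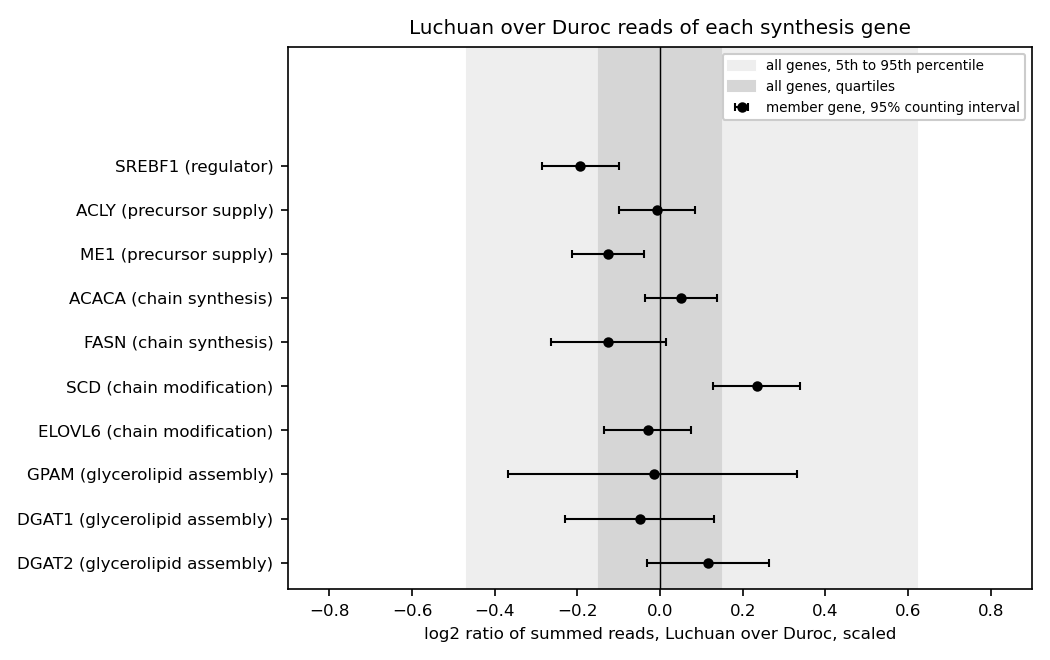
Log2 ratio of summed reads of each synthesis gene, Luchuan over Duroc after scaling (horizontal axis), with its 95% Clopper-Pearson interval for counting error (bars). The grey bands give the quartiles, -0.15 to 0.15, and the 5th to 95th percentiles, -0.47 to 0.62, of all 16986 genes, and all 10 points lie inside the wider band.

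Among the 112 regions, 3 were past 2-fold as higher in Luchuan, which is 2.68%, and 3 as higher in Duroc, also 2.68%. Over all 140081 regions these shares were 7.11% and 5.7%. The 3 regions higher in Luchuan were in the windows of ACACA, FASN and ELOVL6, and the 3 higher in Duroc in those of ACACA, ELOVL6 and GPAM. Past 2-fold with an interval outside 0 were 3 regions as higher in Luchuan and 2 as higher in Duroc, or 2.68% and 1.79%, against 6.27% and 5.19% of all regions. The GPAM region rests on 0 reads in Luchuan and 6 in Duroc and its interval included 0. The interval was above 0 for 11 regions, or 9.82%, and below 0 for 13 regions, or 11.6%, against 13.4% and 15.7% of all regions. The quartiles of the log2 ratio were -0.23 and 0.19 over the regions of the synthesis genes and -0.35 and 0.31 over all regions.

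**Figure D2:**
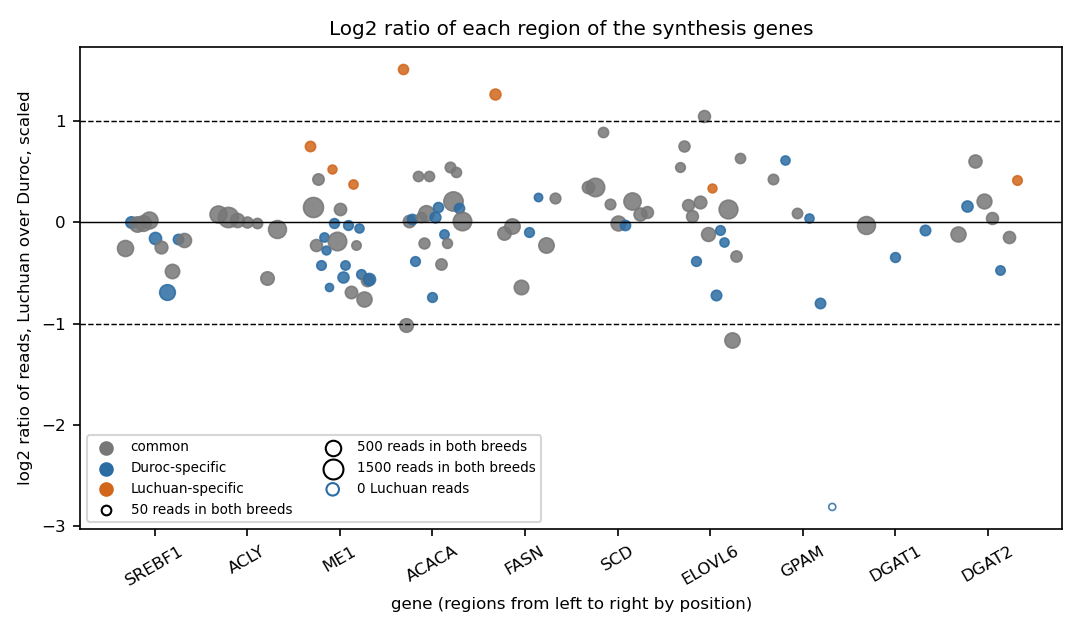
Log2 ratio of each of the 112 regions (vertical axis), Luchuan over Duroc after scaling, by gene and from left to right by position. Point area grows with the reads of both breeds, colors give the breed in which the peak was called, dashed lines mark 2-fold, and the open circle at -2.81 is the GPAM region with 0 Luchuan reads.

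Of these regions, 68 had been called by the authors in both breeds, 37 in Duroc alone and 7 in Luchuan alone. The Luchuan-specific share was 6.25%, and over all regions it was 19.1%; the Duroc-specific share was 33.0%, and over all regions 31.8%. A call in 1 breed did not mean that reads were missing in the other. The 37 Duroc-specific regions held 1704 Duroc and 937 Luchuan reads, a summed log2 ratio of -0.30 and a median of -0.15. The 7 Luchuan-specific regions held 201 reads in Luchuan and 159 in Duroc, a summed log2 ratio of 0.90 and a median of 0.53. Over all regions of these classes the medians were -0.39 and 0.75. The calls were made from the same ATAC-seq data, so class and ratio are not independent. The counting interval of a breed-specific region does not allow for this. A region of these genes had a median of 58 Duroc and 39.5 Luchuan reads, beside 61 and 38 over all regions.

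**Figure D3:**
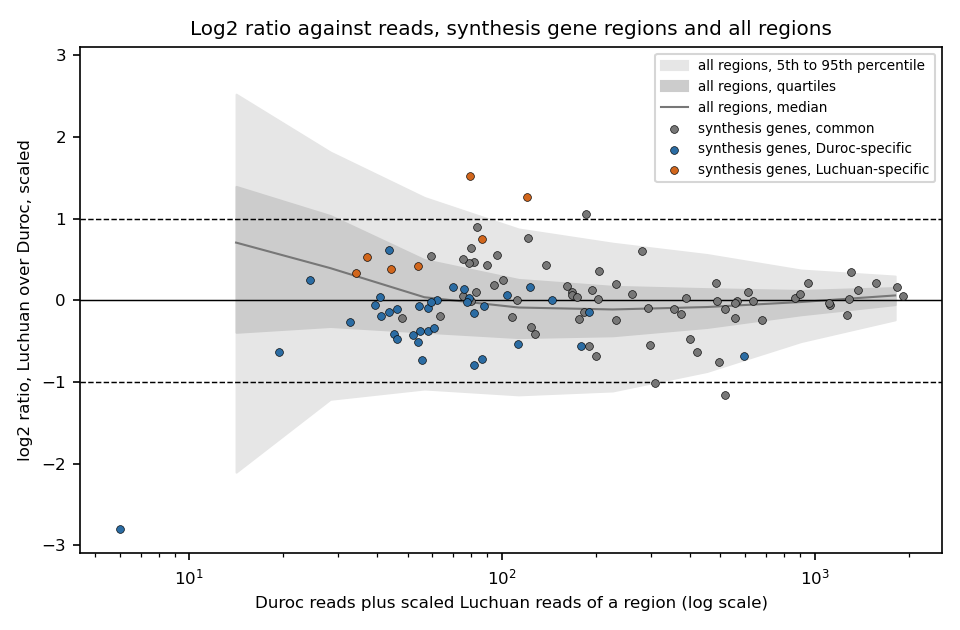
Log2 ratio of each region, Luchuan over Duroc after scaling (vertical axis), against its Duroc reads plus scaled Luchuan reads on a log axis. Grey bands give the quartiles and the 5th to 95th percentiles of all regions with like reads, which narrow from -1.21 to 1.81 at 20 to 40 reads to -0.24 to 0.29 at 1280 to 2560 reads.

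SREBF1, the regulator, lies on chromosome 12 from 60733967 to 60750951 and had 11 regions with 1507 reads in Luchuan and 2542 in Duroc. Its log2 ratio was -0.19 (-0.29 to -0.10), and 9 of its regions had a ratio below 0. The gene was open at both ends. At the end with the lower coordinate, the region from 60733653 to 60734104 had 191 reads in Luchuan and 284 in Duroc, and the next one inside the gene, from 60734212 to 60734657, had 214 and 318. Both had a log2 ratio of -0.01, with intervals that included 0. The interval was below 0 for 3 regions. One of them lay outside the same end, from 60731819 to 60732399, with 211 reads in Luchuan and 370 in Duroc and a log2 ratio of -0.25, its interval ending just below 0. The others were at the higher end, where the Duroc-specific region from 60749227 to 60750068 had 155 reads in Luchuan and 368 in Duroc, a log2 ratio of -0.68 (-0.97 to -0.41), and the region from 60750080 to 60750520 had 113 and 233, a log2 ratio of -0.48 (-0.82 to -0.15). These neighbouring regions also lie within 10 kb of RAI1, which starts at 60751159. The region with the most reads was in the middle of the gene, from 60740934 to 60741541, with 296 reads in Luchuan and 430 in Duroc and a log2 ratio of 0.02 (-0.20 to 0.24). SREBF1 had the densest window of the 10 genes, with 40.7 Luchuan and 68.7 Duroc reads per kb of gene and flanks, a density at or above that of 91.9% of all genes. All 11 regions also lie within 10 kb of TOM1L2 or RAI1, so neither this density nor the ratio can be given to SREBF1 alone.

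ACLY, which supplies acetyl-CoA, lies on chromosome 12 from 20796678 to 20841301. Its 7 regions had all been called in both breeds and held 1625 reads in Luchuan and 2411 in Duroc, a log2 ratio of -0.01 (-0.10 to 0.08). The region across the lower end of the gene, from 20796141 to 20797381, carried 662 reads in Luchuan and 939 in Duroc, or 39.7% of the reads of the gene, and its log2 ratio was 0.06 (-0.09 to 0.20). It was the densest gene-end region of the 10 genes, at 533 reads in Luchuan and 757 in Duroc per kb. One region of ACLY stood apart from the rest. Near the higher end, from 20840283 to 20840624, it had 82 reads in Luchuan and 177 in Duroc and a log2 ratio of -0.54 (-0.94 to -0.16). Just beyond that end, the region from 20842096 to 20843149 had 371 and 571 reads and a log2 ratio of -0.06 (-0.25 to 0.13), and its midpoint lies inside KLHL11. The region across the lower end and the one from 20791194 to 20791930 also lie within 10 kb of TTC25. Both regions named at the higher end lie within 10 kb of KLHL11, so most reads of the window cannot be given to ACLY alone.

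ME1, the cytosolic malic enzyme that yields NADPH, lies on chromosome 1 from 82799878 to 82989895. Its 23 regions, the most of the 10 genes, held 1755 reads in Luchuan and 2826 in Duroc, a log2 ratio of -0.13 (-0.21 to -0.04). Its regions differed in sign. The region with the most reads, across the lower end from 82799459 to 82800885, had 655 reads in Luchuan and 867 in Duroc and a log2 ratio of 0.16 (0.01 to 0.30). The next strongest, 77.9 kb into the gene from 82877173 to 82878307, had 403 and 674 reads and a log2 ratio of -0.18, with an interval that ended just below 0. Of the 23 regions, 17 had a ratio below 0, and for 5 of them the interval was below 0. Apart from that second strongest region, these lay past the middle of the gene or beyond its higher end. The largest such difference was from 82955940 to 82956682, with 125 reads in Luchuan and 312 in Duroc and a log2 ratio of -0.76 (-1.07 to -0.45). The regions from 82906447 to 82906858 and from 82962148 to 82962482 had ratios of -0.69 (-1.19 to -0.21) and -0.57 (-1.07 to -0.09). Beyond the gene, from 82999647 to 82999889 and inside RWDD2A, 49 reads in Luchuan and 107 in Duroc gave -0.56 (-1.08 to -0.06). Without the region that carried the most reads, the log2 ratio of ME1 was -0.27, and with the regions within 2 kb of the gene ends alone it was 0.16.

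ACACA, acetyl-CoA carboxylase alpha, is the longest of the 10 genes, on chromosome 12 from 38580916 to 38875067. Its 21 regions held 1816 reads in Luchuan and 2586 in Duroc, a log2 ratio of 0.05 (-0.04 to 0.14). A pair of regions 3.14 kb apart near the lower end went in opposite directions past 2-fold. The Luchuan-specific region from 38590291 to 38590471, 9.46 kb into the gene, had 40 reads in Luchuan and 20 in Duroc and a log2 ratio of 1.52 (0.75 to 2.41), the highest of the 112. The region from 38593318 to 38593733, 12.6 kb into the gene and called in both breeds, had 69 reads in Luchuan and 207 in Duroc and a log2 ratio of -1.02 (-1.44 to -0.62), or -0.98 with scaling by reads in regions. The strong regions of the gene showed smaller ratios. The strongest was 50.2 kb inside the higher end, from 38824264 to 38825446, with 574 reads in Luchuan and 731 in Duroc and a log2 ratio of 0.21 (0.05 to 0.37). The region across the higher end, from 38874725 to 38875665, had 440 and 642 reads and a log2 ratio of 0.02 (-0.16 to 0.19). TADA2A starts at 38875156, so this region spans the ends of both genes. No region lay within 2 kb of the lower end of ACACA.

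**Figure D4:**
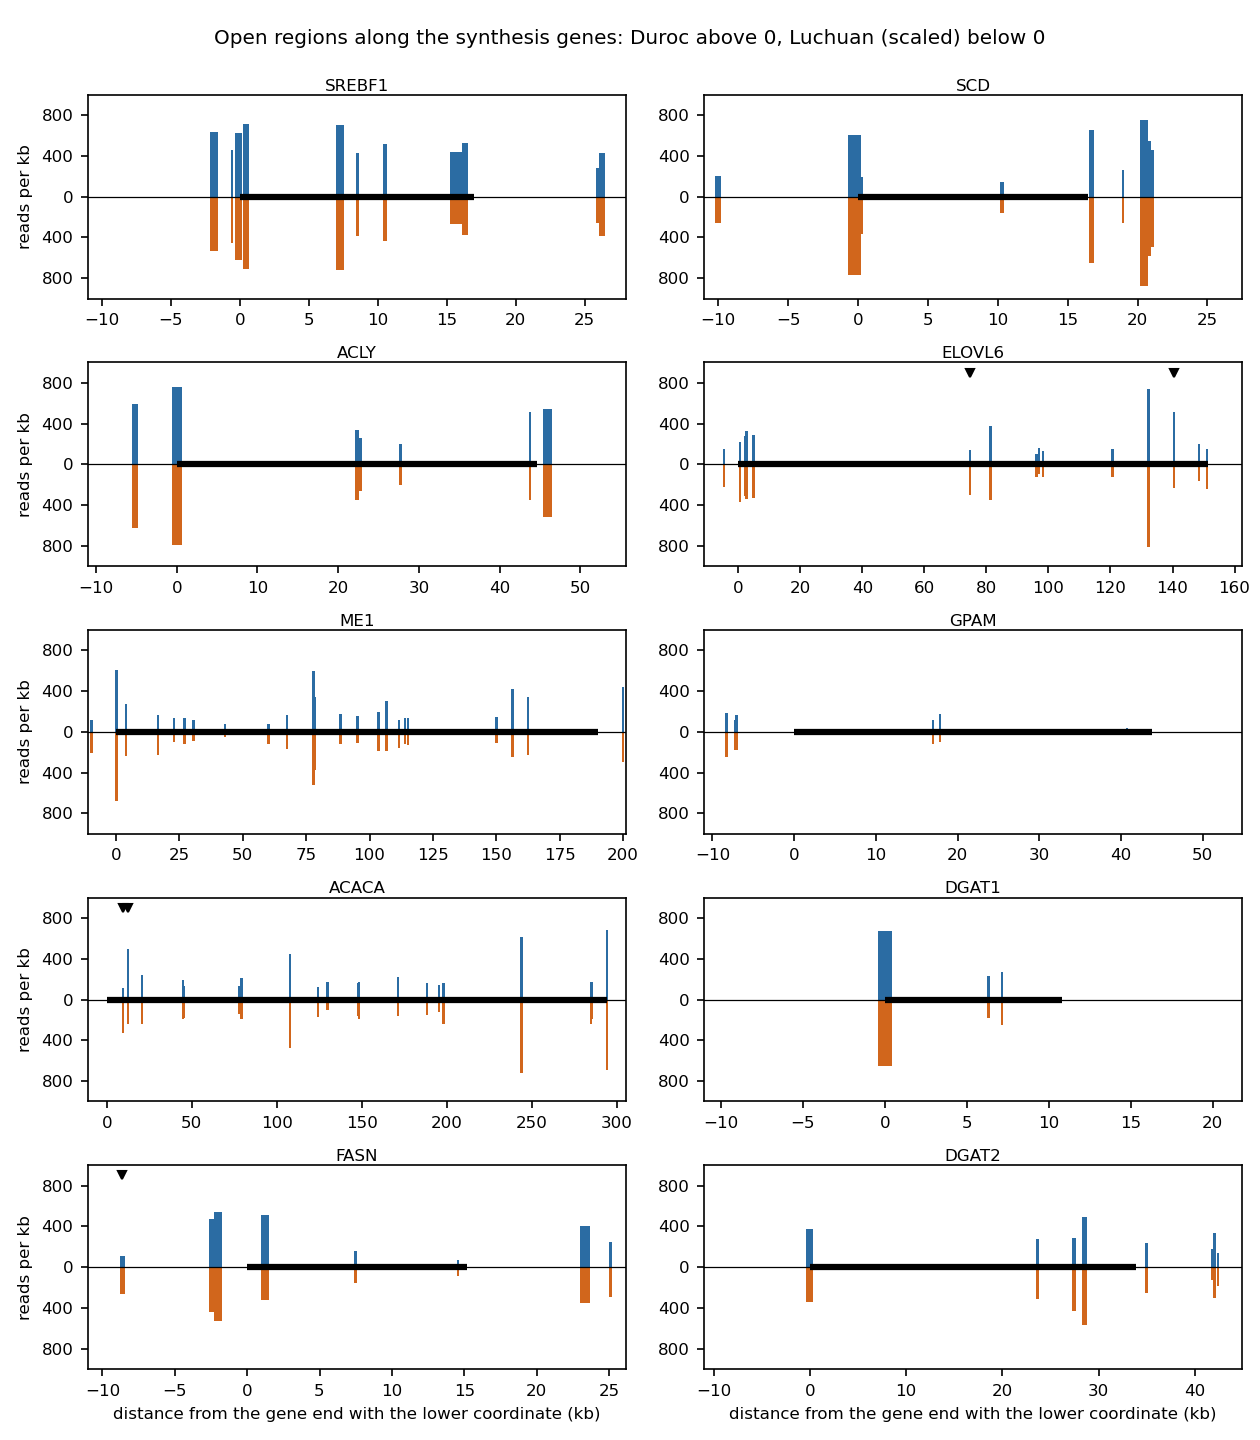
Reads per kb of each region (vertical axis; Duroc upwards in blue, Luchuan multiplied by 1.48 downwards in orange) against the distance in kb from the gene end with the lower coordinate, where the thick black line is the gene body. Narrow regions are drawn wider than scale to be seen, black triangles mark the 5 regions past 2-fold with an interval outside 0, and GPAM shows no region at either end.

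FASN, fatty acid synthase, lies on chromosome 12 from 922405 to 937560. Its 8 regions held 691 reads in Luchuan and 1112 in Duroc, a log2 ratio of -0.12 (-0.26 to 0.01). Most of these reads lay outside the gene body. The region with the most reads was 8.19 kb beyond the higher end, from 945378 to 946116, at the end of DUS1L, which starts at 945459. It had 174 reads in Luchuan and 300 in Duroc and a log2 ratio of -0.22 (-0.50 to 0.05). Just beyond the lower end, from 920133 to 920651, 186 reads in Luchuan and 281 in Duroc gave -0.03 (-0.31 to 0.24). Inside the gene, 1.23 kb from that end, the region from 923384 to 923889 had 112 and 257 reads and a log2 ratio of -0.63 (-0.97 to -0.31). With the gene body alone the log2 ratio of FASN was -0.53, past the limit of 0.5, and this value rests mainly on that region, since the other two inside the gene held 28 reads in Luchuan and 41 in Duroc together. The opposite direction was seen 8.64 kb outside the lower end. There the Luchuan-specific region from 913602 to 913928 had 58 reads in Luchuan and 35 in Duroc and a log2 ratio of 1.27 (0.66 to 1.94). At the higher end of FASN, the nearest region, from 936906 to 937055, had 9 reads in Luchuan and 11 in Duroc.

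SCD, stearoyl-CoA desaturase, lies on chromosome 14 from 111461560 to 111478033. It was the only one of the 10 genes whose interval lay above 0, with 1332 reads in Luchuan and 1671 in Duroc over 9 regions and a log2 ratio of 0.23 (0.13 to 0.34). With counts scaled by the clean reads of the libraries the ratio was 0.04, below that interval, and the median of all genes was -0.20. Without scaling it was -0.33, where the median of all genes was -0.57. The size of the ratio thus depended on the scaling, and its direction on whether counts were scaled. The interval was above 0 for 3 of its regions. The region across the lower end, from 111460842 to 111461788, had 495 reads in Luchuan and 574 in Duroc and a log2 ratio of 0.35 (0.17 to 0.52). The adjoining region, from 111461792 to 111461941, had 37 and 29 reads and a log2 ratio of 0.89 (0.17 to 1.67). At the higher end the breeds did not differ beyond counting error, with 165 reads in Luchuan and 245 in Duroc from 111478091 to 111478465 and a log2 ratio of -0.01 (-0.30 to 0.28). The third lay 3.97 kb beyond the higher end, from 111481709 to 111482293, with 347 and 442 reads and a log2 ratio of 0.21 (0.01 to 0.42). Without the region across the lower end, the log2 ratio of SCD was 0.17. No other protein-coding gene lay within 10 kb of SCD. With the gene body alone, which left out the region across the lower end, the log2 ratio of SCD was 0.52 from 71 reads in Luchuan and 73 in Duroc.

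ELOVL6, the elongase that acts on palmitate, lies on chromosome 8 from 112038670 to 112190079. Its 16 regions held 1227 reads in Luchuan and 1848 in Duroc and a log2 ratio of -0.03 (-0.13 to 0.08). Regions past 2-fold in both directions stood within the gene. From 112113202 to 112113624, 74.7 kb from the lower end, 85 reads in Luchuan and 60 in Duroc gave a log2 ratio of 1.05 (0.57 to 1.57), which was 0.86 with scaling by clean reads. From 112178819 to 112179511, 10.9 kb inside the higher end, 108 reads in Luchuan and 357 in Duroc gave -1.16 (-1.49 to -0.85). This was the lowest ratio of the 112 regions among those with reads in both breeds. At 8.32 kb from it, the strongest region of the gene, from 112170395 to 112171287, had 489 reads in Luchuan and 659 in Duroc and a log2 ratio of 0.13 (-0.04 to 0.30). The gene ends themselves were weak, with 52 reads in Luchuan and 45 in Duroc from 112039072 to 112039277 and 33 and 31 reads from 112189613 to 112189814. Over these regions alone, the only ones within 2 kb of an end, the log2 ratio of ELOVL6 was 0.72.

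GPAM, the mitochondrial acyltransferase that starts glycerolipid synthesis, lies on chromosome 14 from 122538600 to 122582390 and had the fewest reads. Its 6 regions held 116 reads in Luchuan and 173 in Duroc, a log2 ratio of -0.02 (-0.37 to 0.33), and a difference within this interval was not detectable at this depth. The table listed no region within 2 kb of either end of GPAM, as for 26.1% of the 19550 protein-coding genes. The region with the most reads lay 8.26 kb beyond the lower end, from 122530238 to 122530447, with 35 reads in Luchuan and 38 in Duroc. Inside the gene, the region from 122556322 to 122556622 had 20 and 52 reads and a log2 ratio of -0.80 (-1.64 to -0.05). The region nearest to an end, from 122579251 to 122579400, was the one with 0 reads in Luchuan and 6 in Duroc. With the gene body alone the log2 ratio of GPAM was -0.63, from 34 reads in Luchuan and 78 in Duroc.

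DGAT1 and DGAT2, which add the last acyl chain in the making of triglycerides, differed from each other in how their open regions were laid out but neither differed between breeds beyond counting error. DGAT1 lies on chromosome 4 from 452890 to 463665 and had 3 regions with 420 reads in Luchuan and 641 in Duroc, a log2 ratio of -0.05 (-0.23 to 0.13). The region across its lower end, from 452465 to 453304, held 88.1% of these reads, 373 Luchuan and 562 Duroc, with a log2 ratio of -0.03 (-0.22 to 0.16). Both other regions were Duroc-specific, inside the gene, and had at most 29 reads in Luchuan and 45 in Duroc. All 3 regions also lie within 10 kb of another gene, SCRT1 or HSF1, so their reads cannot be given to DGAT1 alone. DGAT2 lies on chromosome 9 from 10032163 to 10066082, and no other protein-coding gene lay within 10 kb of it. Its 8 regions held 656 reads in Luchuan and 893 in Duroc, a log2 ratio of 0.12 (-0.03 to 0.26). The region across the lower end, from 10031770 to 10032493, had 168 reads in Luchuan and 268 in Duroc and a log2 ratio of -0.11 (-0.40 to 0.17). The other strong regions were inside the gene towards the higher end. From 10059420 to 10059810, 115 reads in Luchuan and 111 in Duroc gave a log2 ratio of 0.61 (0.22 to 1.002), the only region of DGAT2 whose interval left out 0. The region from 10060478 to 10060933, with 176 and 224 reads, had 0.21 (-0.08 to 0.50).

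Regions at the gene ends were compared with the rest of the regions of these genes. The annotation used here gives no strand, so the start of transcription was not told apart from the other end. Within 2 kb of an end lay 21 of the 112 regions, with a median of 310 reads in Luchuan and 528 in Duroc per kb, against 126 and 175 for the 69 regions deeper inside the genes. The 21 regions held 4647 reads in Luchuan and 6949 in Duroc, a summed log2 ratio of -0.02, and 0 of them were past 2-fold, against 4.69% of such regions of all genes, where a region counts once for each gene it belongs to. Past 2-fold were 5 of the 69 regions deeper inside, against 12.2% of such regions of all genes, and 1 of the 22 farther outside, against 8.35%. The density of the strongest end region was at or above that of 73.7% of the 14438 genes with such a region for ACLY, 65.0% for SREBF1, 61.8% for SCD and 61.3% for ACACA. These shares were 58.1% for DGAT1, 54.9% for ME1, 28.3% for FASN, 23.7% for DGAT2 and 19.1% for ELOVL6. Of the 34 regions with 200 or more reads in both breeds together, 2 were past 2-fold, the ACACA and ELOVL6 regions higher in Duroc. Of all regions with as many reads, 3.18% were past 2-fold as higher in Duroc and 0.78% as higher in Luchuan. Of the 112 regions, 25 also lay within 10 kb of another protein-coding gene, and their reads cannot be given to 1 gene.

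The surroundings were described over the 200 kb beyond each window. For ELOVL6 the sides differed. Towards higher coordinates, where EGF and LRIT3 lie, 52 regions had a median log2 ratio of -0.74 and 15 of them were past 2-fold as higher in Duroc, and on the other side 25 regions had a median of 0.13. EGF itself, an epidermal growth factor gene on chromosome 8 from 112235607 to 112330062, had 2895 reads in Luchuan and 5877 in Duroc and a log2 ratio of -0.46 (-0.52 to -0.40). For ME1 the median was -0.35 over 28 regions beyond the higher end and -0.06 over 10 regions beyond the lower end. For GPAM the side with the higher coordinates, where ACSL5 lies, had a median of 0.26 over 19 regions, and the other side -0.17 over 9. Around SCD both sides had medians above 0, 0.23 over 9 regions and 0.05 over 15. Around SREBF1 both had medians below 0, -0.20 over 25 regions beyond the lower end and -0.08 over 28 beyond the higher end. Its nearest neighbours TOM1L2 and RAI1 had log2 ratios of -0.20 (-0.28 to -0.12) and -0.15 (-0.23 to -0.08), beside -0.19 for SREBF1. Each region of SREBF1 also lies in the window of TOM1L2 or RAI1, so these ratios share reads and are not independent. Medians were also below 0 on both sides of ACLY, -0.11 over 40 regions and -0.18 over 32, where ACLY itself had -0.01. For DGAT1, itself at -0.05, they were -0.13 over 28 regions and -0.24 over 31. For ACACA, FASN and DGAT2 the median was above 0 beyond the lower end and below 0 beyond the higher end. For DGAT2 the summed reads gave the opposite signs, -0.10 beyond the lower end and 0.06 beyond the higher end. The medians and sums of the surroundings were not tested.

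The other genes of the pathway were taken from a list of 55 genes, of which 54 were found and had a region. Of these 54, 1 was past 0.5 on the log2 scale as higher in Luchuan and 1 as higher in Duroc, beside 6.46% and 4.46% of all genes. Their median was -0.02. The gene higher in Luchuan was ACSL5, which activates fatty acids to acyl-CoA, with 305 reads in Luchuan and 277 in Duroc over 4 regions and a log2 ratio of 0.70 (0.46 to 0.94). The gene higher in Duroc was SCD5, a second stearoyl-CoA desaturase, with 259 reads in Luchuan and 657 in Duroc over 11 regions and a log2 ratio of -0.78 (-0.99 to -0.57). The desaturases SCD and SCD5 thus had ratios of opposite sign on this scale, and both were below 0 without scaling. Among the 13 regulators, the interval was below 0 for 8 and above 0 for 1, beside 25.5% and 22.5% of all genes, and their median was -0.13. Those below 0 were SREBF2, SCAP, INSIG1, MBTPS2, NR1H2, NR1H3, USF2 and MID1IP1, with the lowest ratio, -0.49, for MBTPS2. The one above 0 was INSIG2 at 0.29 (0.13 to 0.45), a value that was below 0 without scaling. For MBTPS1, MLXIPL, USF1 and THRSP the interval included 0. The 7 genes that supply acetyl-CoA and NADPH had a median of -0.03, the 17 genes of malonyl-CoA, elongation and desaturation 0.03, and the 17 genes of acyl activation and glycerolipid assembly -0.02.

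Markers of the cell types that muscle can hold were measured in the same way, and their part in the values of the synthesis genes was not tested. All 10 muscle fiber markers had regions, with 61975 reads in Luchuan and 101543 in Duroc. Their ratios ran from -0.62 for MYH4 to 0.03 for TTN, with a median of -0.31. The interval was below 0 for 9 of the 10, beside 25.5% of all genes. That share is not at like depth, since more reads make an interval narrower. MYH2 had the fewest reads of these markers, 1335 in Luchuan and 2384 in Duroc, and the median gene had 674 and 1002. The summed ratio was -0.15 (-0.17 to -0.14), and TTN alone held 34916 of the Luchuan and 50339 of the Duroc reads. CKM, the muscle creatine kinase gene, had -0.47 (-0.53 to -0.40). Of the 10 adipocyte markers, 8 had a region, with 4331 reads in Luchuan and 6186 in Duroc, and FABP4 and PCK1 had none. Their ratios ran from -0.94 (-1.27 to -0.62) for LEP, the only one past 0.5, to 0.33 (-0.06 to 0.73) for PLIN1. The median was 0.10 and the summed ratio 0.05 (-0.01 to 0.10). The interval was below 0 for 3, LEP, CEBPA at -0.47 and CIDEA at -0.29. It was above 0 for 2, CIDEC at 0.13 and LIPE at 0.26. The adipocyte markers thus did not move in one direction. Most reads in this sum came from CIDEC, with 1163 in Luchuan and 1568 in Duroc, and LIPE, with 1914 and 2362. ADIPOQ, which is specific to adipocytes, had 104 reads in Luchuan and 147 in Duroc, a log2 ratio of 0.06 (-0.31 to 0.43). The 6 endothelial markers had a median of 0.15 and a summed ratio of 0.08 (-0.02 to 0.18). Past 0.5 were KDR at 0.73 (0.22 to 1.25) and TEK at 0.78 (0.33 to 1.25). KDR rests on 70 reads in Luchuan and 62 in Duroc, and TEK on 89 and 76. The interval was also above 0 for ROBO4 at 0.31. PECAM1 at -0.13, ERG at -0.11 and CDH5 at -0.01 were below 0, with intervals that included 0. Of all genes, 6.46% were past 0.5 as higher in Luchuan and 4.46% as higher in Duroc. The 5 of 6 fibroblast markers with a region had a median of 0.33 and a summed ratio of 0.18 (0.08 to 0.28). COL3A1 was past 0.5 at 0.60 (0.40 to 0.80). The interval was also above 0 for COL1A2 at 0.33, and it included 0 for DCN at 0.38. PDGFRA at -0.11 and COL1A1 at -0.01 were below 0, with intervals that included 0. The 6 leukocyte markers had a median of 0.04 and a summed ratio of -0.04 (-0.10 to 0.03), with PTPRC at -1.07 (-1.76 to -0.46) and CD3E at 1.19 (0.19 to 2.37) past the limit in opposite directions. The 4 genes listed as satellite cell markers, PAX7, MYF5, CHRNA1 and NCAM1, had a median of -0.02 and a summed ratio of -0.07 (-0.12 to -0.02). Their ratios ran from -0.21 (-0.31 to -0.12) for PAX7 to 0.24 (0.01 to 0.47) for CHRNA1.

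**Figure D5:**
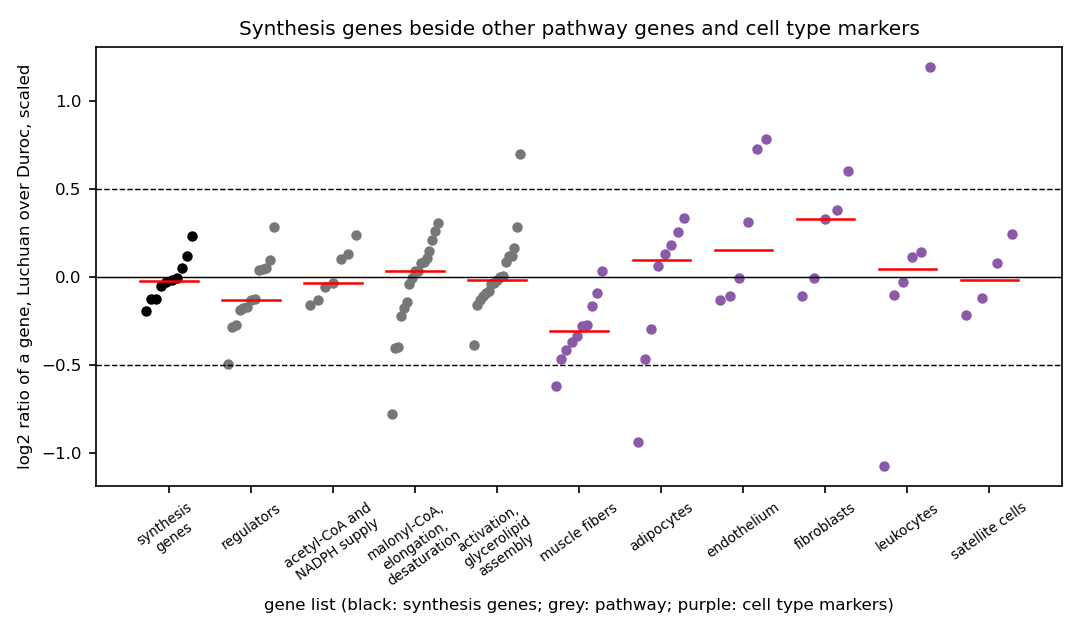
Log2 ratio of each gene, Luchuan over Duroc after scaling (vertical axis), for the 10 synthesis genes, the other pathway genes by role and the markers of 6 cell types. Each point is a gene, red lines are medians and dashed lines mark 0.5 in both directions; the median of the muscle fiber markers lies at -0.31 and that of the synthesis genes at -0.02.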

How the data were processed

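Per the labels, the authors filtered ATAC-seq reads with Trimmomatic (version 0.36), aligned them to Sus scrofa 11.1 with Bowtie2 and called peaks with MACS2. Removal of duplicates, the shift of reads for the transposase and the pooling of replicates are not given in the sources used here. The authors deposited raw counts of reads, with 1 column for each breed and 1 row for each peak interval. Their columns of a rescaled log2 fold change, an average signal and a p-value were not used. Starts were read as counted from 0, since the shortest interval is then 150 bases, and are given counted from 1.

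Log2 ratios used a pseudocount of 1, without a filter on low counts. Precision follows from the reads of a region, and its interval gives it. The deposited counts have 1 value per breed, so the count models for replicates that had been planned for values per animal were not used. The calculations were tested on simulated data. Gene positions came from 19550 protein-coding RefSeq genes.

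The 10 genes, the pathway list, the marker lists and the limits (0.5 for a gene, 1 for a region, log2 scale) were chosen with earlier results of these data known. Of the pathway list, at most the 4 genes with the largest ratio past 0.5 in each direction and 200 or more reads were to be named. All 13 regulators and single markers of the cell types, among them ADIPOQ and CKM, are named besides, after their values were seen. Of each synthesis gene, the region with the most reads, those nearest to its ends and those past 2-fold were to be named, and further regions were named after their values were seen. The search for promoter motifs that had been planned was not run. Alternatives covered scaling, windows, merging, pseudocount, read minimum and limits. Calculations ran under Python 3.11.15 with statsmodels 0.14.6, SciPy 1.17.1, pandas 2.3.3 and NumPy 2.4.6, and plots were drawn in Matplotlib 3.10.9.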

Additional observations from a re-analysis of the deposited data

How the results depend on the processing

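No paired analysis was possible because the table has 1 count per breed, and for the same reason no replicate could be left out. The median log2 ratio over the 10 genes, -0.02, left the counting interval of their summed reads, -0.06 to 0.01, under 4 alternatives. It was -0.58 without scaling, -0.22 with scaling by clean reads, -0.108 without the strongest region of each gene and -0.082 with the gene body alone. The first and second of these moved the median of all genes to -0.57 and -0.20, so the whole table shifted with them. Without scaling, 8 genes and 18 regions were past the limits as higher in Duroc and 0 regions as higher in Luchuan. Of all genes, 61.8% were then past the limit as higher in Duroc. Of all regions, 20.7% were past it as higher in Duroc and 2.50% as higher in Luchuan. The genes were at -0.75 for SREBF1, -0.57 for ACLY, -0.51 for ACACA, -0.69 for FASN and -0.69 for ME1. The others were at -0.33 for SCD, -0.59 for ELOVL6, -0.57 for GPAM, -0.61 for DGAT1 and -0.44 for DGAT2. By clean reads, SREBF1 was at -0.39, ACLY at -0.20, ACACA at -0.14, FASN at -0.32, ME1 at -0.32, SCD at 0.039, ELOVL6 at -0.22, DGAT1 at -0.24 and DGAT2 at -0.079. Scaling by reads in regions or by a fit on signal changed no count of genes. The former left 2 regions past 2-fold as higher in Duroc, beside 5.19% of all regions, with the ACACA region at -0.98. Scaling by clean reads left 2 as higher in Luchuan, beside 4.93% of all regions, with the ELOVL6 region at 0.86.

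Narrower windows use fewer regions. The gene body with 2 kb gave 2 genes higher in Duroc, FASN at -0.53 and GPAM at -0.63. The gene body alone gave the same values for FASN, -0.53, and GPAM, -0.63, with 1 gene higher in Luchuan, SCD at 0.52, and DGAT2 at 0.33. Regions within 2 kb of an end alone, an alternative chosen after seeing the data, gave 1 gene higher in Luchuan, ELOVL6 at 0.72, and 1 in Duroc, FASN at -0.58, with ME1 at 0.16, DGAT2 at -0.073 and 0 regions past 2-fold in either direction. Without its strongest region ME1 was at -0.27. Every interval as listed gave 5 regions past 2-fold as higher in Duroc, since overlapping intervals are then counted again. A limit of 4-fold left 0 regions higher in Luchuan and 1 in Duroc, the GPAM region with 0 Luchuan reads. The share of all regions was not computed for every interval as listed or for the limit of 4-fold.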
